A study of Mus musculus with 18 samples.

Results

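The p53 target genes are 32 mouse genes, chosen by name as 31 well known targets of the transcription factor p53 together with Trp53, which encodes p53 itself. All 32 were found among the 41079 genes of the count tables. The rule is a list of gene names and uses no measured value, although the list was drawn up with earlier results of these data known. They were followed in bone marrow cells selected for cKit, the receptor of stem cell factor that marks stem and progenitor cells. The cells were wild type (WT) or carried AE9a, a truncated isoform of the leukemia fusion RUNX1-RUNX1T1 (AML1-ETO) that is itself leukemogenic in mice. Cells of both genotypes had received DMSO, C16 or RE, which gave AE9a DMSO, AE9a C16, AE9a RE, WT DMSO, WT C16 and WT RE groups of 3 libraries each, 18 libraries in all. The study concerns inhibition of WDR5 and MLL1, and which compound has which target is not given in the labels. Neither are the dose, the time, the age of the animals, how AE9a was delivered, or whether the 3 libraries of a group came from separate animals. The p-values below may therefore measure only the spread between these samples.

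p53 is a tetrameric transcription factor that is kept scarce by its own target Mdm2, a ubiquitin ligase, and that accumulates after DNA damage, oncogene activity or nucleolar stress. Its targets stop the cell cycle, repair DNA, adjust metabolism or trigger apoptosis, and in the blood system they limit the survival and self-renewal of stem cells. The tumor suppressor p19Arf, a product of Cdkn2a, holds Mdm2 back when an oncogene is active.

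The promoter sequences are shown because p53 binds a known motif, a pair of half-sites with a CATG-like core, and because Cdkn1a and Ckap2, both of which hold a near-complete pair, moved in opposite directions under C16 in AE9a cells, as described further on. RefSeq promoters of GRCm38.p6, from 250 bases before to 50 after a transcript's start, were at hand for 24 of the 32 genes. The p53 consensus half-site, which reads the same on both strands, occurred with no mismatch in the promoters of 11 of these 24 genes (45.8%), against 9.55% of all 27025 genes and 8.36% of all 32851 promoters. An adjoining pair of half-sites with both cores intact and at most 2 mismatches occurred in 2 of the 24, Cdkn1a and Ckap2, against 0.189% of all genes. The shares were not tested, and a match is a description of the letters, not evidence of binding. The genes were chosen as known p53 targets, so that choice can itself raise their shares above those of all genes. The sites are given with 20 flanking bases on either side, at chr17:29090908-29090967 (plus strand) for Cdkn1a and at chr8:22185983-22186042 (minus strand) for Ckap2. That of Cdkn1a has 1 mismatch and starts 51 bases before the start of the RefSeq transcript searched. That of Ckap2 has 2 mismatches and starts 203 bases before such a start. The 24 genes had 31 promoter windows, so a gene can have other starts, from which the distance was not measured. Capitals mark the paired half-sites.
Cdkn1a: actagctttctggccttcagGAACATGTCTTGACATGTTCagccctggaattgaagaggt
Ckap2: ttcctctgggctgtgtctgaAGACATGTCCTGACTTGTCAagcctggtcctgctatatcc
Single exact half-sites stood in the promoters of Mdm2 (chr10:117710925-117710954, minus strand), Trp53 (chr11:69580274-69580303, plus strand) and Ccng1 (chr11:40755452-40755481, minus strand), the genes of the feedback loop. Capitals mark the half-site.
Mdm2: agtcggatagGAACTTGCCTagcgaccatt
Trp53: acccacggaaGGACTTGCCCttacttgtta
Ccng1: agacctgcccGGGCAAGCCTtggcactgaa
The other promoters with an exact half-site were those of Aen, Bax, Ei24, Gadd45a, Polk and Sesn1.

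Libraries held 16053727 to 27207748 fragments assigned to genes. Every one of the 32 genes had at least 18 fragments in every library and passed the filter on low counts in each fit. Levels are given as CPM, a gene's fragments scaled to the total assigned to genes in its library, and, where genes are compared with each other, as FPKM, which also divides by exon length. Kit was detected in all libraries, at 61 to 221 CPM in WT and 215 to 1551 CPM in AE9a libraries. Runx1t1, which checks the AE9a label, stood at 34.5 to 46.8 CPM in AE9a DMSO and AE9a RE libraries and at or below 0.402 CPM in WT libraries, but at 2.35, 4.06 and 0.205 CPM in AE9a C16 libraries 1, 2 and 3, the last within the WT range. WT replicate 2 stood apart from WT replicates 1 and 3 under every treatment: it was below both for 25 of the 32 genes under DMSO, 24 under C16 and 24 under RE, with a median ratio to their mean of 0.562, 0.523 and 0.647. The share of all genes below both was not computed, so these counts are no trait of the 32 genes. Over all genes WT DMSO replicate 2 lay 0.632 and 0.618 from replicates 1 and 3 (root mean square log2 distance), against 0.194 between those. Across all genes the library labelled WT C16 replicate 2 lay closer to AE9a C16 libraries (root mean square log2 distance of 0.449 to 0.463) than to other WT C16 libraries, and so results in WT cells are given with and without replicate 2. Without it each WT group holds replicates 1 and 3 alone. That choice came from these same data, so the smaller errors and further calls it gives do not measure the spread of all WT libraries. The plot of all 32 genes by library shows both patterns.

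**Figure D1:**
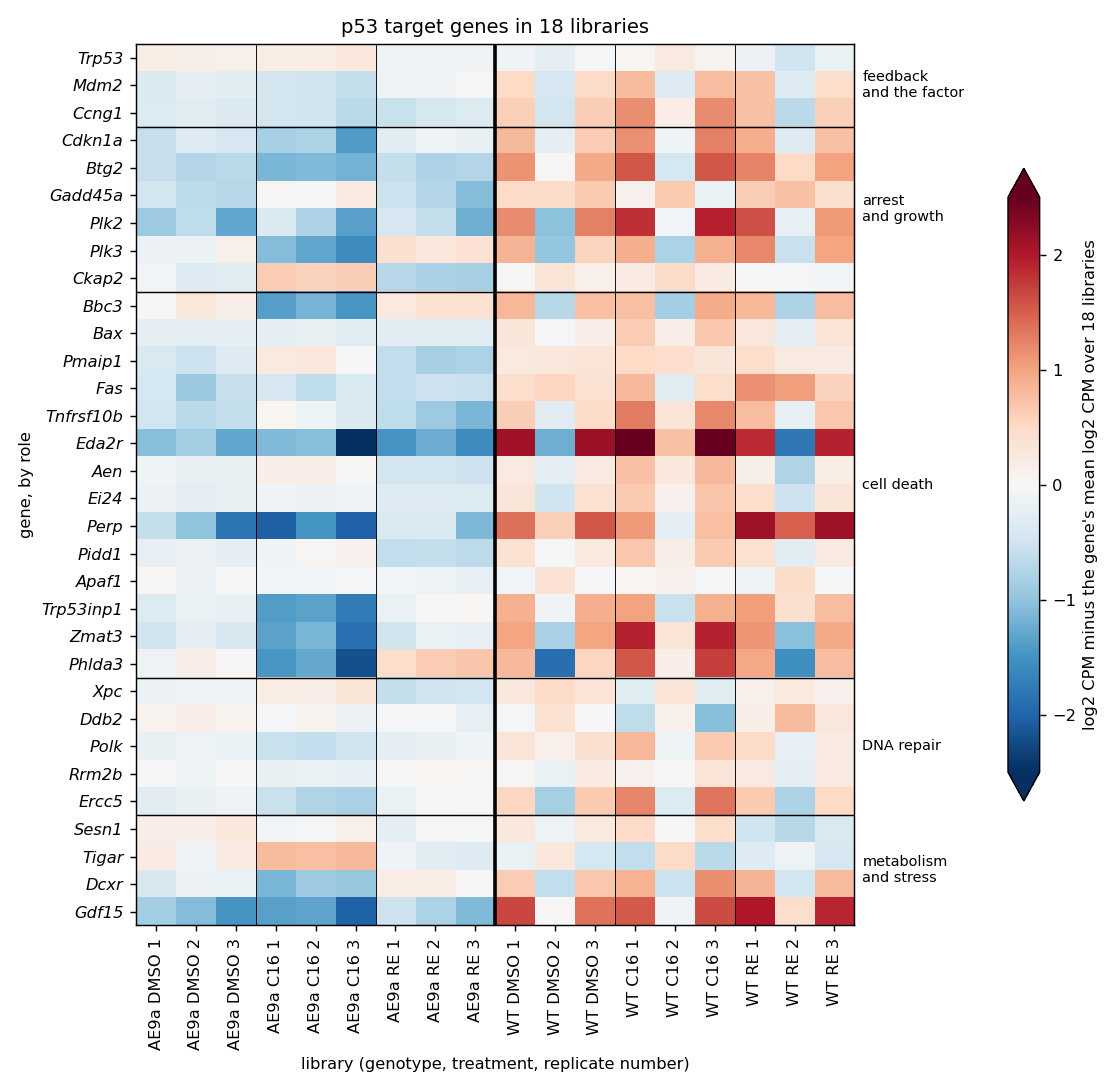
Level of each of the 32 genes (rows, by role) in each of the 18 libraries (columns, by genotype, treatment and replicate number), as log2 CPM minus the gene's mean over the 18 libraries; colors saturate at 2.5 in either direction. WT libraries 1 and 3 are red for most genes under every treatment, while WT libraries numbered 2 lie below both of them for most of the 32 genes, and in the columns of AE9a C16 blue (Phlda3, Bbc3) and red (Ckap2, Tigar) stand together.

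Measured per exon length, the most abundant of the genes under DMSO were Bax, the apoptotic pore protein, and Cdkn1a, the cyclin-dependent kinase inhibitor p21. Their FPKM means were 184 and 179 in WT cells, and 140 and 95.1 in AE9a cells. Ccng1, cyclin G1, which acts with Mdm2 on p53, followed at 127 FPKM in WT and 80.6 FPKM in AE9a cells, and Trp53 itself at 69.2 and 83.7 FPKM. At the low end in AE9a cells stood Eda2r, a receptor of the TNF receptor family, at 0.42 FPKM, against 2.66 FPKM in WT cells. Summed over the 32 genes, the level was 1595 to 1838 CPM in the 9 AE9a libraries, 2951 to 3911 CPM in the WT libraries numbered 1 and 3, and 1856 to 2235 CPM in those numbered 2.

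The first question was how the genes stood in AE9a cells without an inhibitor. Under DMSO, 11 of the 32 genes (34.4%) were lower in AE9a than in WT cells and 1, Trp53, was higher (edgeR quasi-likelihood test, adjusted p under 0.05). Of all 15809 genes tested, 13.8% were lower and 12.9% higher. The median log2 difference of the 32 was -0.45, beside -0.05 over all genes. Without the 3 WT libraries numbered 2, 26 of the 32 genes (81.3%) were lower and 2 higher, Trp53 and Tigar, beside 25.9% and 24.8% of all genes, and the median was -0.70. Genotype and count table go together in these data, so a difference in handling between the tables cannot be told apart from the genotype, and in bulk RNA fewer cells of a type cannot be told apart from less RNA per cell.

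Among the genes lower in AE9a cells were receptors and effectors of cell death. Perp, a membrane protein of p53-driven apoptosis, was at 14.9, 11.1 and 6.31 CPM in AE9a DMSO libraries and at 58.0, 34.1 and 65.3 CPM in WT DMSO libraries. The groups did not overlap, and the log2 difference was -2.26 ± 0.37 (SE, adjusted p = 0.00046). Groups were apart downward for 14 of the 32 genes and for 4113 of all 15809, and upward for 1 and 3446. Fas, the death receptor, was at 5.67, 4.04 and 5.14 CPM against 10.3, 11.1 and 9.98 CPM, again without overlap (log2 difference -1.07 ± 0.23, adjusted p = 0.0028), and here WT replicate 2 was the highest. Pmaip1, which encodes the BH3-only protein Noxa, was lower by a log2 difference of -0.68, with WT libraries at 80.6 to 85.7 CPM and AE9a libraries at 46.9 to 54.0 CPM. Gdf15, a secreted stress cytokine, and Btg2, an antiproliferative mRNA decay factor, differed by -2.27 and -1.40. Gadd45a, a growth arrest and DNA damage protein, was at 9.15, 8.01 and 7.64 CPM against 17.4, 17.3 and 19.6 CPM (log2 difference -1.11 ± 0.20, adjusted p = 0.00077). Here WT replicate 2 was the lowest of its group but close to replicate 1.

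Eda2r had the largest difference, -2.63 ± 0.91 (adjusted p = 0.046), but its groups overlapped: it stood at 3.07, 3.53 and 2.60 CPM in AE9a DMSO libraries and at 27.4, 2.75 and 28.2 CPM in WT DMSO libraries, so that WT replicate 2 fell into the AE9a range. Without the WT libraries numbered 2 the difference was -3.13 ± 0.25. The remaining lower genes were Bax (-0.38), Tnfrsf10b, the mouse TRAIL receptor (-0.87), Xpc, the damage sensor of nucleotide excision repair (-0.46), and Ckap2, a mitotic spindle protein (-0.37). Cdkn1a did not pass the test with all libraries: it was at 175, 210 and 196 CPM in AE9a and at 461, 224 and 406 CPM in WT cells (log2 difference -0.89 ± 0.34, adjusted p = 0.069), with no overlap, and it passed once replicate 2 of WT DMSO, WT C16 or WT RE was left out (adjusted p = 0.0284, 0.026 and 0.0391) or all 3 of these were (4.8e-05). Trp53 was higher in AE9a cells, at 195, 192 and 188 CPM against 162, 145 and 168 CPM (log2 difference 0.29 ± 0.08, adjusted p = 0.011). The number of lower genes fell to 7, 5 and 6 without AE9a DMSO replicate 1, 2 or 3, and to 6 and 7 without WT DMSO replicate 1 or 3. Over all genes these fits called 1336 to 1596 lower, against 2178 with all libraries. The calls lost in this way were those of Bax, Eda2r, Tnfrsf10b, Btg2, Xpc and Ckap2, with adjusted p between 0.05 and 0.145. Perp, Fas, Pmaip1, Gdf15, Gadd45a and Trp53 passed the test whichever of the 18 libraries was left out.

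Among regulators of p53, a list of 26 genes of which 24 could be tested, 4 had a higher level (16.7%) and 3 a lower one (12.5%) in AE9a cells, near the 12.9% and 13.8% of all genes. Cdkn2a, the locus of p16Ink4a and p19Arf, had the largest difference, with 32.7, 45.8 and 53.8 CPM in AE9a and 1.56, 0.112 and 1.21 CPM in WT libraries (log2 difference 5.53 ± 0.99, adjusted p = 0.00088). Hipk2, a kinase that phosphorylates p53, was lower by -1.31 on the log2 scale, and Daxx and Atr were higher by 0.50 and 0.29. Of 27 testable further p53 targets, 3 were higher (11.1%) and 4 lower (14.8%), again near those shares, among them Ddit4, an inhibitor of mTORC1, at -0.92.

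The second question was how C16 acted on the genes in AE9a cells. The response was mixed in direction: 9 of the 32 genes rose and 11 fell against DMSO, while 12 did not pass the test. Of all 14704 genes tested 33.1% rose and 33.2% fell, so that the 28.1% and 34.4% of the 32 genes were close to the background, and the count alone is no result about them. The median log2 change was -0.14, beside 0.00 over all genes. What varied was the size and direction from gene to gene, from -1.57 for Phlda3 to 0.87 for Ckap2, and the following genes are described by role.

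In the feedback loop, Mdm2 was at 108, 117 and 115 CPM under DMSO and at 101, 98.2 and 91.7 CPM under C16, which was a small fall without overlap (log2 change -0.19 ± 0.06, adjusted p = 0.014). Ccng1 changed by -0.17 and Trp53 by 0.09, and neither passed the test with all libraries (adjusted p = 0.053 and 0.051).

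Among genes of arrest and growth, Cdkn1a was at 175, 210 and 196 CPM under DMSO and at 148, 152 and 98.1 CPM under C16 (log2 change -0.51 ± 0.15, adjusted p = 0.015). All 3 treated libraries were below all 3 controls, and replicate 3, whose Runx1t1 level was in the WT range, was the lowest; without it the change was -0.33 (adjusted p = 0.0049). Plk3, a polo-like kinase of the stress response, fell from 24.3, 24.1 and 29.3 CPM to 12.7, 10.9 and 8.98 CPM (log2 change -1.22 ± 0.12, adjusted p = 2.6e-05). Btg2 fell by 0.45 on the log2 scale. Ckap2 moved the other way, from 27.3, 22.9 and 23.6 CPM to 44.7, 42.6 and 44.0 CPM, the largest rise among the 32 genes (log2 change 0.87 ± 0.07, adjusted p = 5.3e-06). Gadd45a rose by 0.72 ± 0.13 on the log2 scale, from 7.64 to 9.15 CPM under DMSO to 12.3 to 14.7 CPM under C16. Plk2, a related kinase, did not pass the test (0.17 ± 0.29). Thus p21 and Plk3 fell while Ckap2 and Gadd45a rose in the same libraries.

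Cell death genes divided in the same manner. Phlda3, an inhibitor of AKT signaling, was at 20.6, 25.4 and 23.0 CPM under DMSO and at 8.19, 9.31 and 4.92 CPM under C16, the largest fall among the 32 (log2 change -1.57 ± 0.20, adjusted p = 8.8e-05, and -1.36 without AE9a C16 replicate 3). Bbc3, which encodes the BH3-only protein Puma, fell from 23.4, 28.2 and 26.2 CPM to 8.99, 10.4 and 8.41 CPM (log2 change -1.45 ± 0.10, adjusted p = 3.8e-06). Trp53inp1, a cofactor of p53 in apoptosis and autophagy, fell by 1.21 on the log2 scale. Zmat3, an RNA-binding protein of splicing control, fell from 40.6, 48.8 and 43.4 CPM to 22.8, 26.1 and 15.9 CPM (log2 change -1.0 ± 0.17, adjusted p = 0.00064). In each of these 4 genes the groups were apart, as they were downward for 14 of the 32 genes and upward for 9. Of all 14704 genes, 5494 were apart downward and 4899 upward, so non-overlap here is no trait of the p53 target genes.

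Against these falls, Pmaip1 rose from 52.5, 46.9 and 54.0 CPM to 80.9, 82.9 and 67.4 CPM (log2 change 0.63 ± 0.09, adjusted p = 0.00021). The BH3-only genes of this list thus moved apart, Pmaip1 up and Bbc3 down. Tnfrsf10b rose by 0.49 on the log2 scale, Aen, an apoptosis nuclease, by 0.31, and Pidd1, a scaffold of the PIDDosome, by 0.25. Ei24, an endoplasmic reticulum protein, rose by 0.11. Of these 5 calls 2 hung on single libraries: that of Tnfrsf10b was lost without AE9a DMSO replicate 2 or AE9a C16 replicate 1 (adjusted p = 0.0531 and 0.057), and that of Ei24 without any of AE9a DMSO replicates 1, 2 and 3 and AE9a C16 replicates 1 and 3 (adjusted p up to 0.135). Bax, at 134 to 135 CPM under DMSO and 131 to 140 CPM under C16, Apaf1, the core of the apoptosome, Fas, Eda2r and Perp did not pass the test. Perp passed without AE9a DMSO replicate 3 (adjusted p = 0.0109) or AE9a C16 replicate 2 (0.0491).

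Of 5 DNA repair genes, Xpc rose (0.36), and Ercc5, the XPG nuclease, and Polk, a translesion polymerase, fell (-0.47 and -0.36). Rrm2b, a ribonucleotide reductase subunit, changed by -0.11 (adjusted p = 0.058) and passed without AE9a DMSO replicate 2 or AE9a RE replicate 1 (0.0227 and 0.0322). Ddb2, a sensor of ultraviolet damage, changed by -0.12 and is uncertain throughout, since its exons share 1036 bases with Acp2 on the opposite strand and the counting ignored strand. Of the metabolism and stress genes, Tigar, a phosphatase that lowers glycolytic flux, rose from 33.8, 27.8 and 34.0 CPM to 51.3, 49.6 and 51.8 CPM (log2 change 0.71 ± 0.08, adjusted p = 4.9e-05). Dcxr, a reductase of xylulose, fell by 0.73, and Gdf15 and Sesn1, a sestrin that restrains mTORC1, did not pass the test. Sesn1 passed without AE9a C16 replicate 3 or AE9a RE replicate 1 (adjusted p = 0.0188 and 0.0374), and Ccng1 without AE9a C16 replicate 1, AE9a RE replicate 1 or AE9a RE replicate 3 (adjusted p of 0.0265 to 0.0345).

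**Figure D2:**
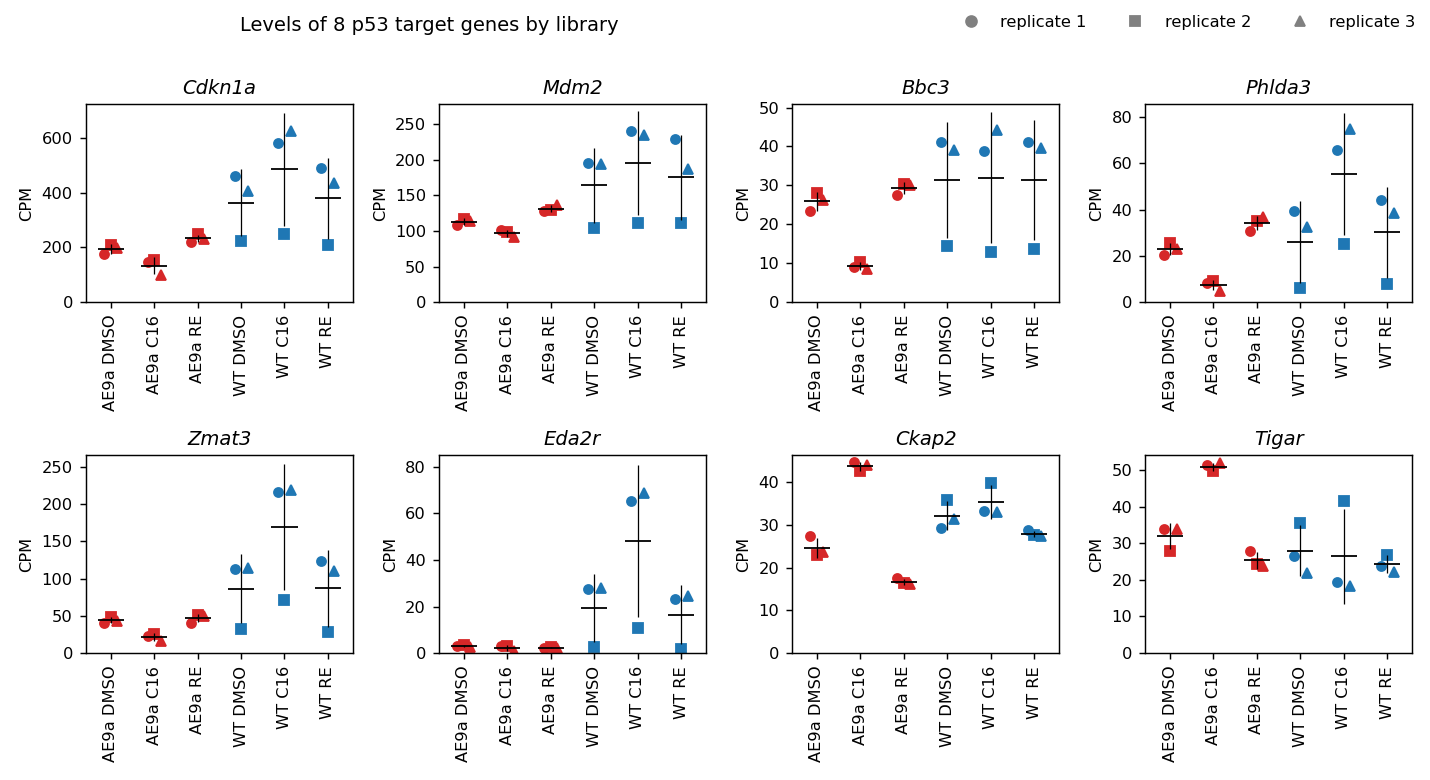
CPM (vertical axes, linear, from 0) of 8 of the genes in the 6 groups, 1 symbol per library (circle, square and triangle for replicates 1, 2 and 3; red AE9a, blue WT), with the group mean as a horizontal bar and 1 SD as a vertical line. In AE9a cells Bbc3, Phlda3 and Zmat3 lie lowest and Ckap2 and Tigar highest under C16, and WT replicate 2 (blue squares) lies below the other WT libraries for Cdkn1a, Mdm2, Bbc3, Phlda3, Zmat3 and Eda2r.

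Other genes of the pathway were read against the same background of 33.1% of all genes higher and 33.2% lower under C16 in AE9a cells. All 14 tested cell cycle genes that p53 is known to lower through p21 and the DREAM repressor complex rose, with a median log2 change of 0.84; Cdc20, Bub1, Ccnb1 and Plk1 rose by 1.02, 0.96, 0.91 and 0.90. Among 24 regulators 7 rose (29.2%) and 5 fell (20.8%), at or below the background. Cdkn2a fell from 32.7, 45.8 and 53.8 CPM to 3.55, 4.30 and 0.154 CPM (log2 change -3.96 ± 0.48, adjusted p = 7.3e-05), lowest in the library whose Runx1t1 level was in the WT range. Chek1, the replication checkpoint kinase, rose by 0.74. Of 27 further targets 8 rose (29.6%) and 12 fell (44.4%), with Epha2, Trp53i13, Prkab1 and Fbxw7 lower by more than 1 on the log2 scale (-2.96, -1.16, -1.13 and -1.13).

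The makeup of the libraries moved too. Summed over lists of markers, mast cell and basophil genes (7 of 7 detected) stood at 5844 to 7269 CPM in AE9a DMSO and at 230 to 1323 CPM in AE9a C16 libraries, erythroid genes (7 genes) at 303 to 355 CPM and 3.28 to 18.6 CPM, and primary granule genes (Mpo, Elane, Prtn3 and Ctsg) at 2633 to 2870 CPM and 8393 to 10757 CPM. Markers of maturing neutrophils (5 genes) stood at 1009 to 1206 CPM and 193 to 208 CPM, and those of megakaryocytes and platelets (9 genes) at 267 to 392 CPM and 58.7 to 150 CPM. Genes of the progenitor list (5 genes) did not move together. Kit fell from 886 to 1206 CPM to 215 to 312 CPM. Gata2 fell from 614 to 798 CPM to 54.6 to 158 CPM. Cd34 rose from 63.8 to 76.6 CPM to 115 to 136 CPM, and Flt3 from a mean of 13.97 CPM to 24.36 CPM. Myb was near level, with means of 329 CPM and 331 CPM. None of these genes was at 0 in all 3 libraries of a group. Markers of B cells, T and NK cells, and stroma and endothelium each summed to at most 92.9 CPM in any library, with Cd3e at 0 in all AE9a libraries. The part of these cell types in the changes of the p53 target genes was not tested.

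The third question was whether RE did the same. In AE9a cells 4 of the 32 genes rose and 8 fell under RE against DMSO, or 12.5% and 25.0%, beside 12.2% and 16.8% of all genes. The median log2 change was 0.00, beside -0.01 over all genes. Changes spanned a narrower range than under C16, from -0.52 to 0.61, although those of some genes, among them Mdm2, Trp53, Pidd1 and Sesn1, were larger in size under RE. C16 and RE were compared with the same 3 DMSO libraries, so their values are set side by side and the opposite signs of many genes are no independent result.

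Ckap2 fell under RE, to 17.5, 16.4 and 16.1 CPM from 27.3, 22.9 and 23.6 CPM (log2 change -0.52 ± 0.07, adjusted p = 0.0014). Xpc, Pidd1, Aen and Trp53 fell by 0.37, 0.38, 0.27 and 0.21 on the log2 scale. Trp53 was at 159, 161 and 163 CPM under RE and at 195, 192 and 188 CPM under DMSO, with narrow groups that did not overlap (adjusted p = 0.0038). Groups were apart downward for 10 of the 32 genes and for 4608 of all 14704, and upward for 6 and 2776. Mdm2 rose, to 128, 130 and 137 CPM from 108, 117 and 115 CPM (log2 change 0.26 ± 0.06, adjusted p = 0.0094). These 6 calls held whichever of the 9 AE9a libraries was left out.

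The other calls under RE each hung on single libraries. Phlda3 rose to 30.7, 35 and 36.7 CPM from 20.6, 25.4 and 23.0 CPM (log2 change 0.61 ± 0.18, adjusted p = 0.033). It no longer passed once AE9a DMSO replicate 1 or 3 or AE9a RE replicate 2 or 3 was left out (adjusted p of 0.0856 to 0.119). Plk3 and Dcxr rose by 0.43 and 0.39, and Sesn1, Pmaip1 and Tigar fell by 0.27, 0.29 and 0.29. Plk3 was lost without any of AE9a DMSO replicates 1 and 2 and AE9a RE replicates 1, 2 and 3 (adjusted p up to 0.0927), Dcxr without AE9a DMSO replicate 1 or AE9a RE replicate 1 or 2 (up to 0.0913), and Sesn1 without any of the AE9a DMSO libraries or AE9a RE replicate 1 or 2 (up to 0.0872). Pmaip1 and Tigar were lost without AE9a DMSO replicate 1 or 3, AE9a C16 replicate 1 or AE9a RE replicate 2 or 3 (adjusted p of 0.05 to 0.148). Without AE9a C16 replicate 3, Cdkn1a and Trp53inp1, which rose by 0.31 and 0.24 in the values of all libraries without passing the test, passed it (adjusted p = 0.00956 and 0.0268). The count of genes that rose was thus 1 without AE9a DMSO replicate 1 or AE9a RE replicate 2 and 2 without AE9a RE replicate 1 or 3, and the count that fell was 5 without AE9a DMSO replicate 1 or 3 or AE9a RE replicate 2. Over all genes, 901 to 1535 rose in the former fits and 1450 to 1778 fell in the latter, against 1797 and 2464 with all libraries.

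Bbc3 and Zmat3, among the largest falls under C16, stood under RE at 27.6, 30.2 and 30.1 CPM and at 40.6, 50.8 and 50.1 CPM, overlapping their DMSO libraries (log2 changes 0.22 ± 0.10 and 0.14 ± 0.16, not passing the test). All 14 cell cycle genes fell under RE, beside 16.8% of all genes, with a median log2 change of -0.49. Cdkn2a was at 82.5, 92.6 and 107.6 CPM, higher than under DMSO by 1.14 ± 0.36 on the log2 scale (adjusted p = 0.043). Of the further targets 5 rose and 5 fell (18.5% each, beside 12.2% and 16.8% of all genes). Summed mast cell and basophil markers were at 9441 to 10353 CPM and primary granule markers at 1278 to 1470 CPM in AE9a RE libraries, the opposite side of AE9a DMSO from C16. Markers of maturing neutrophils (1241 to 1818 CPM) and of megakaryocytes and platelets (422 to 547 CPM) lay on the opposite side as well. Erythroid markers did not: at 179 to 223 CPM they were below AE9a DMSO, as under C16. The part of these cell types was not tested.

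**Figure D3:**
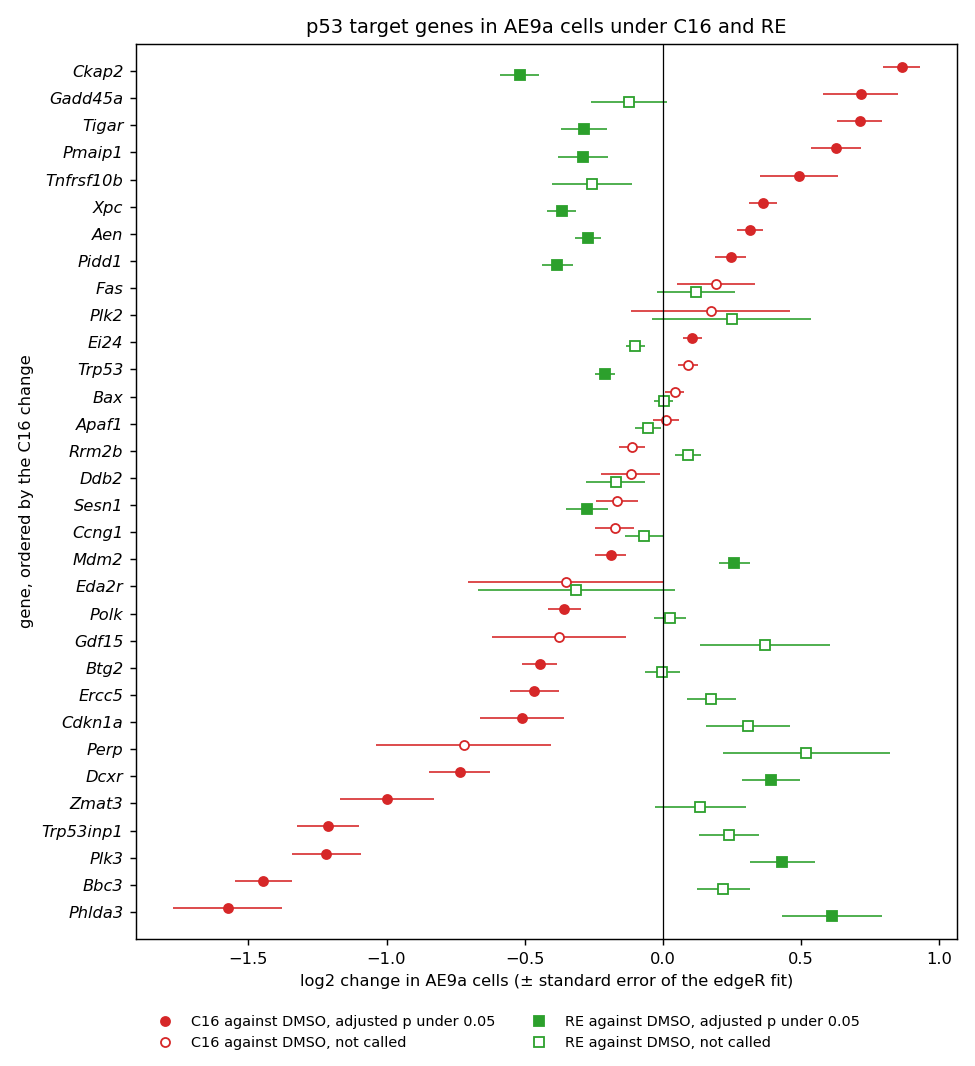
Log2 change (horizontal axis, with the standard error of the fit) of each of the 32 genes in AE9a cells under C16 (red circles) and RE (green squares) against the same 3 DMSO libraries, with filled symbols for adjusted p under 0.05. Values under C16 span -1.57 to 0.87 and those under RE -0.52 to 0.61.

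Compared directly, C16 and RE differed in AE9a cells for 24 of the 32 genes: 10 were higher and 14 lower under C16, or 31.2% and 43.8%, beside 37.5% and 37.2% of all genes. The share of genes called in either direction, 74.6% of all genes, leaves no room for a result from the count. The largest differences were those of Phlda3, -2.19 ± 0.20 (4.92 to 9.31 CPM under C16 and 30.7 to 36.7 CPM under RE), Bbc3, -1.67 ± 0.10, Plk3, -1.65 ± 0.12, Trp53inp1, -1.45 ± 0.11, and Ckap2, 1.38 ± 0.07, with adjusted p from 2.3e-07 to 6.3e-06. Perp, which had passed against DMSO under neither compound, was lower under C16 by 1.24 ± 0.32 in the direct test, with 5.45, 8.01 and 5.54 CPM against 17.3, 17.3 and 10.3 CPM (adjusted p = 0.0055). Cdkn1a was at 98.1 to 152 CPM under C16 and 219 to 247 CPM under RE (log2 difference -0.82 ± 0.15, adjusted p = 0.00088). Both counts were the same whichever library was left out; Gdf15 (-0.75, adjusted p = 0.018) was lost and Ccng1 gained without AE9a RE replicate 1 (adjusted p = 0.0661 and 0.0415). Bax, Apaf1, Eda2r, Fas, Plk2, Sesn1, Ccng1 and Ddb2 did not pass the test, with differences between -0.11 and 0.11.

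The fourth question was how C16 acted in WT cells. With all 9 WT libraries none of the 32 genes passed the edgeR test, where 0.957% of all 15046 genes rose and 2.15% fell; 3 of the 32 were higher and 0 lower at an unadjusted p under 0.05, and DESeq2 called 0, where it called 5.96% of all genes higher and 6.52% lower. Yet 26 of the 32 changes were positive, with a median of 0.29 beside 0.01 over all genes, and 19 of the 32 genes were higher under C16 in all 3 same-numbered pairs of libraries while 3 were lower. Among all genes of at least 1 CPM on average, 22.7% were higher and 36.5% lower in all 3 pairs. The WT libraries of the same number deviated together from their group means, as described with the processing, and with the replicate number as a block 13 genes rose (40.6%) and 2 fell (6.25%), beside 10.4% and 13.8% of all genes. Without the libraries numbered 2, 18 rose (56.2%) and 4 fell (12.5%), beside 20.8% and 20.9% of all genes.

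Eda2r had the largest change. It was at 27.4, 2.75 and 28.2 CPM in WT DMSO libraries 1, 2 and 3 and at 65.3, 10.6 and 68.9 CPM in WT C16 libraries 1, 2 and 3, so that it was higher in each pair although the groups overlapped (log2 change 1.37 ± 1.08, adjusted p = 0.49; with the block 1.52, adjusted p = 0.0032). Zmat3 went from 114, 32.7 and 114 CPM to 217, 71.4 and 219 CPM (1.02 ± 0.67; with the block 1.07, adjusted p = 0.002). Phlda3 went from 39.4, 6.13 and 32.7 CPM to 65.9, 25.3 and 74.8 CPM (1.15 ± 0.78; with the block 1.36, adjusted p = 0.008). In all 3 genes the libraries numbered 2 were the lowest of their group and moved in the same direction as the others.

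Ccng1 went from 522, 252 and 531 CPM to 777, 396 and 787 CPM (with the block 0.67, adjusted p = 0.0045), Ercc5 from 36.0, 14.3 and 39.8 CPM to 58.4, 19.8 and 63.6 CPM (0.69, adjusted p = 0.0058) and Tnfrsf10b from 20.3, 10.8 and 18.1 CPM to 32.3, 16.4 and 30.4 CPM (0.74, adjusted p = 0.0032). These span cell cycle control, DNA repair and death receptor signaling. Aen was at 84.9, 62.3 and 84.0 CPM under DMSO and at 121, 87.9 and 128 CPM under C16, one of the only 2 of the 32 genes whose groups did not overlap, the other being Trp53 (non-overlap was found for 11.1% of all genes upward and 18.8% downward). Cdkn1a was at 461, 224 and 406 CPM and then at 582, 247 and 626 CPM, with a log2 change of 0.14 in pair 2 and of 0.33 and 0.62 in pairs 1 and 3 (with the block 0.44, adjusted p = 0.02). The other genes that rose with the block were Plk2 (0.80), Ei24 (0.49), Bax (0.41), Pidd1 (0.36) and Mdm2 (0.29, adjusted p = 0.045), and those that fell were Perp (-0.57) and Xpc (-0.39). Left out singly, WT C16 replicate 2 changed a call: Xpc then fell without the block (adjusted p = 0.0219).

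Several genes that C16 had lowered most in AE9a cells did not pass in WT cells in any of these tests. Bbc3 was at 41.1, 14.3 and 39.1 CPM under DMSO and at 38.9, 12.9 and 44.2 CPM under C16. Trp53inp1 and Plk3 had log2 changes of 0.02 ± 0.40 and 0.24 ± 0.61. Pmaip1, at 80.6 to 85.7 CPM and 84.4 to 96.0 CPM, varied little between the WT libraries and changed by 0.19 ± 0.09 (adjusted p = 0.25).

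**Figure D4:**
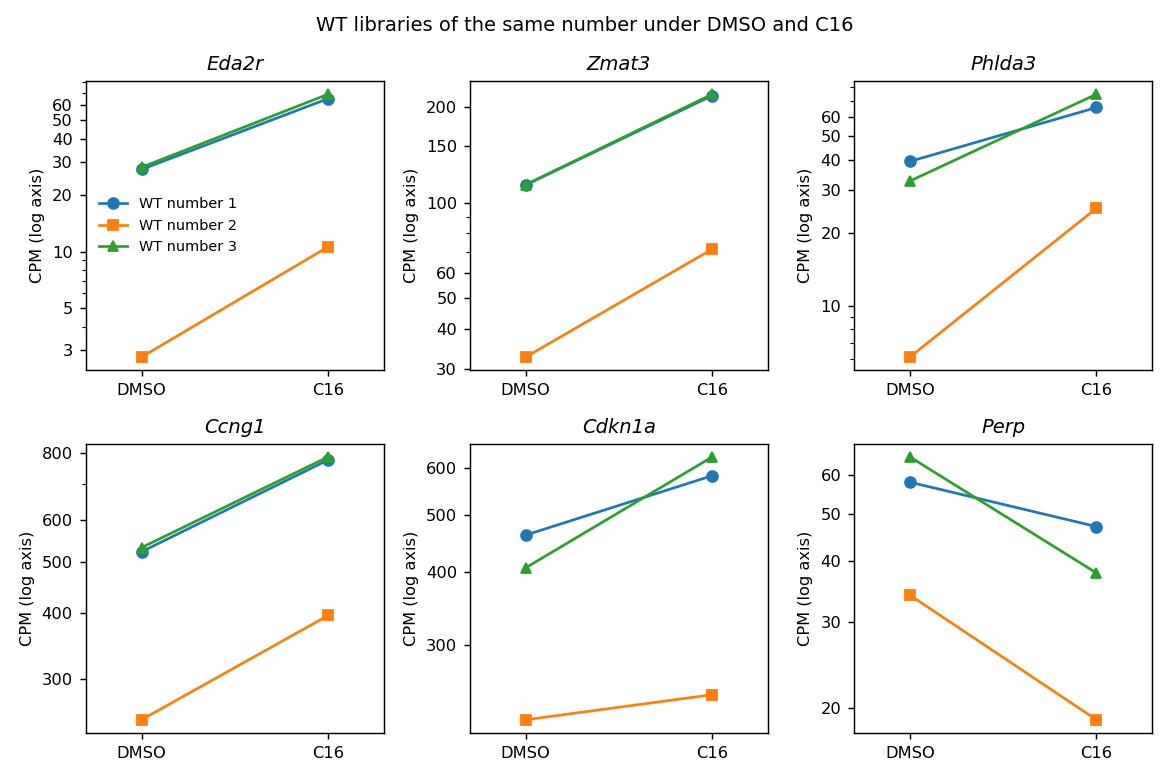
CPM (vertical axes, log scale) of 6 of the genes in WT libraries under DMSO and C16, with lines joining libraries of the same number. Eda2r, Zmat3, Phlda3 and Ccng1 lie higher under C16 on each of the 3 lines, Cdkn1a is nearly level on the line of number 2, and Perp lies lower on each.

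Megakaryocyte and platelet markers, a list of 9 genes including Pf4, Itga2b and Ppbp, moved along with these genes in WT replicates 1 and 3: their summed level was 3079 and 2750 CPM under DMSO and 9840 and 10905 CPM under C16. In replicate 2 it was 402 CPM under DMSO and 307 CPM under C16, while Eda2r, Zmat3, Phlda3 and Ccng1 were 10.6, 71.4, 25.3 and 396 CPM under C16 against 2.75, 32.7, 6.13 and 252 CPM under DMSO. Other genes moved less or were lower in that pair: the log2 change was 0.14 for Cdkn1a and 0.10 for Mdm2, and -0.46, -0.25 and -0.80 for Btg2, Polk and Fas. In all, 22 of the 32 genes were higher under C16 in pair 2, against 25 and 24 in pairs 1 and 3. The share of all genes higher in a single pair was not computed. The median log2 change in pairs 1, 2 and 3 was 0.27, 0.15 and 0.27 for the 32 genes. It was -0.04, -0.08 and -0.06 for all genes of at least 1 CPM on average. The part of megakaryocytes and platelets in the WT response was not tested. Primary granule markers were at 7691 and 8466 CPM in WT replicate 2 under DMSO and C16, against 1575 to 2251 CPM in replicates 1 and 3. In AE9a libraries the megakaryocyte list summed to 58.7 to 547 CPM, so the difference between genotypes moves with it as well, and its part there was not tested.

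Under RE in WT cells none of the 32 genes passed the edgeR test, by which 0.0% of all genes rose and 0.0266% fell, nor that of DESeq2, by which 0.272% rose and 0.226% fell; 0 were higher and 1 lower at an unadjusted p under 0.05. Sesn1 was that gene, at 39.9, 30.1 and 39.3 CPM under DMSO and 23.5, 20.3 and 25.5 CPM under RE, without overlap (log2 change -0.63 ± 0.15, adjusted p = 0.58; with the block -0.62, adjusted p = 0.037, the only call among the 32, beside 0.306% of all genes higher and 0.206% lower). Groups were apart downward for 3 of the 32 genes and for 1276 of all 15046, and upward for 1 and 765. Perp went from 58.0, 34.1 and 65.3 CPM to 98.0, 63.0 and 97.7 CPM, higher in each pair (log2 change 0.74 ± 0.35, which did not pass the test; with the block 0.77, adjusted p = 0.064). Without the libraries numbered 2, Perp rose by 0.67 (adjusted p = 0.0051) and Sesn1 fell by 0.68 (adjusted p = 0.002), beside 4.24% and 3.78% of all genes. The median log2 change of the 32 was 0.05, beside 0.02 over all genes, and Eda2r, Zmat3 and Phlda3 had changes of -0.22 ± 1.07, 0.02 ± 0.66 and 0.23 ± 0.78.

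The last question was whether the response to C16 differed between genotypes, which an interaction term in a fit of all 18 libraries tested. For 4 of the 32 genes (12.5%) the response was more positive in AE9a cells, and for 0 it was more negative, beside 4.78% and 8.29% of all genes; at an unadjusted p under 0.05 the counts were 4 and 5, and DESeq2 called 4 and 3, beside 6.99% and 12.5% of all genes. The 4 were Ckap2 (difference of log2 changes 0.72 ± 0.14, adjusted p = 0.0057), Xpc (0.78 ± 0.20, adjusted p = 0.022), Pmaip1 (0.50 ± 0.13, adjusted p = 0.02) and Gadd45a (0.99 ± 0.27, adjusted p = 0.029). Ckap2 rose by 0.87 in AE9a cells, and its WT libraries were at 29.4, 35.8 and 31.4 CPM under DMSO and 33.2, 39.8 and 32.9 CPM under C16. Xpc, which rose in AE9a cells, was in WT cells at 56.4, 64.8 and 57.7 CPM under DMSO and at 37.5, 57.9 and 37.5 CPM under C16, lower in each pair. Gadd45a was at 17.4, 17.3 and 19.6 CPM and then at 13.5, 19.7 and 11.1 CPM, lower in WT replicates 1 and 3 and higher in replicate 2. The call of Ckap2 held whichever library was left out.

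The other 3 calls were lost without single libraries: Pmaip1 without AE9a DMSO replicate 2, AE9a C16 replicate 1 or 2 or WT C16 replicate 3, and Xpc without AE9a DMSO replicate 2, AE9a C16 replicate 3, WT DMSO replicate 2 or WT C16 replicate 1 or 3 (adjusted p of 0.0543 to 0.0679). Gadd45a was lost without any of AE9a DMSO replicates 2 and 3, AE9a C16 replicates 1 and 3, WT DMSO replicates 2 and 3 and WT C16 replicates 1 and 3 (adjusted p of 0.0546 to 0.0845). The count of genes with a more positive response was 1 or 2 without any of AE9a DMSO replicate 2, AE9a C16 replicates 1 and 3, WT DMSO replicate 2 and WT C16 replicates 1 and 3. Over all genes these fits called 291 to 451 more positive, against 755 with all libraries. The count of genes with a more negative response was 12 without WT C16 replicate 2 alone and 2 without WT RE replicate 2. Calls over all genes rose in these fits as well, to 2752 of 16258 and 1583 of 16248, from 1310 of 15809 with all libraries.

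Without the 3 WT libraries numbered 2, the response was more negative in AE9a cells for 17 of the 32 genes (53.1%) and more positive for 6 (18.8%), beside 21% and 28.9% of all genes. With the replicate block and all libraries 15 responses were more negative and 5 more positive, beside 17.4% and 19.4% of all genes. Without replicate 2, Phlda3 differed by -2.53 ± 0.26, Zmat3 by -1.93 ± 0.22, Eda2r by -1.61 ± 0.36, Bbc3 by -1.50 ± 0.14 and Plk3 by -1.40 ± 0.18. Cdkn1a, Ccng1 and Mdm2 differed by -0.98, -0.74 and -0.48. With all libraries the same differences were -2.67 ± 0.87, -1.97 ± 0.74, -1.67 ± 1.25, -1.48 ± 0.63 and -1.41 ± 0.67 for the first 5, of like size with larger errors, and did not pass the test (adjusted p of 0.057 to 0.37). Calls under C16 were also set side by side from separate fits, that of the 9 AE9a libraries and that of the WT libraries without replicate 2. By these, 8 genes fell in AE9a and rose in WT cells (Btg2, Cdkn1a, Dcxr, Ercc5, Mdm2, Phlda3, Polk and Zmat3), beside 5.73% of the 14088 genes tested in both fits. Another 4 rose in both (Aen, Ei24, Pidd1 and Tnfrsf10b), 2 rose in AE9a and fell in WT cells (Gadd45a and Xpc), and 0 fell in both, beside 10.6%, 4.07% and 10.3%. With the WT calls taken from the fit with the replicate block, 5 genes fell in AE9a and rose in WT cells (Cdkn1a, Ercc5, Mdm2, Phlda3 and Zmat3), beside 1.82% of all genes. In that version the same 4 rose in both, 1 rose in AE9a and fell in WT cells (Xpc) and 0 fell in both, beside 6.63%, 1.78% and 7.43%. Of the 14 testable cell cycle genes, 14 had a positive difference, with a median of 0.73 with all libraries, where 0 passed the test (4 at an unadjusted p under 0.05, and 1 by DESeq2), and 14 of 14 passed without replicate 2.

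**Figure D5:**
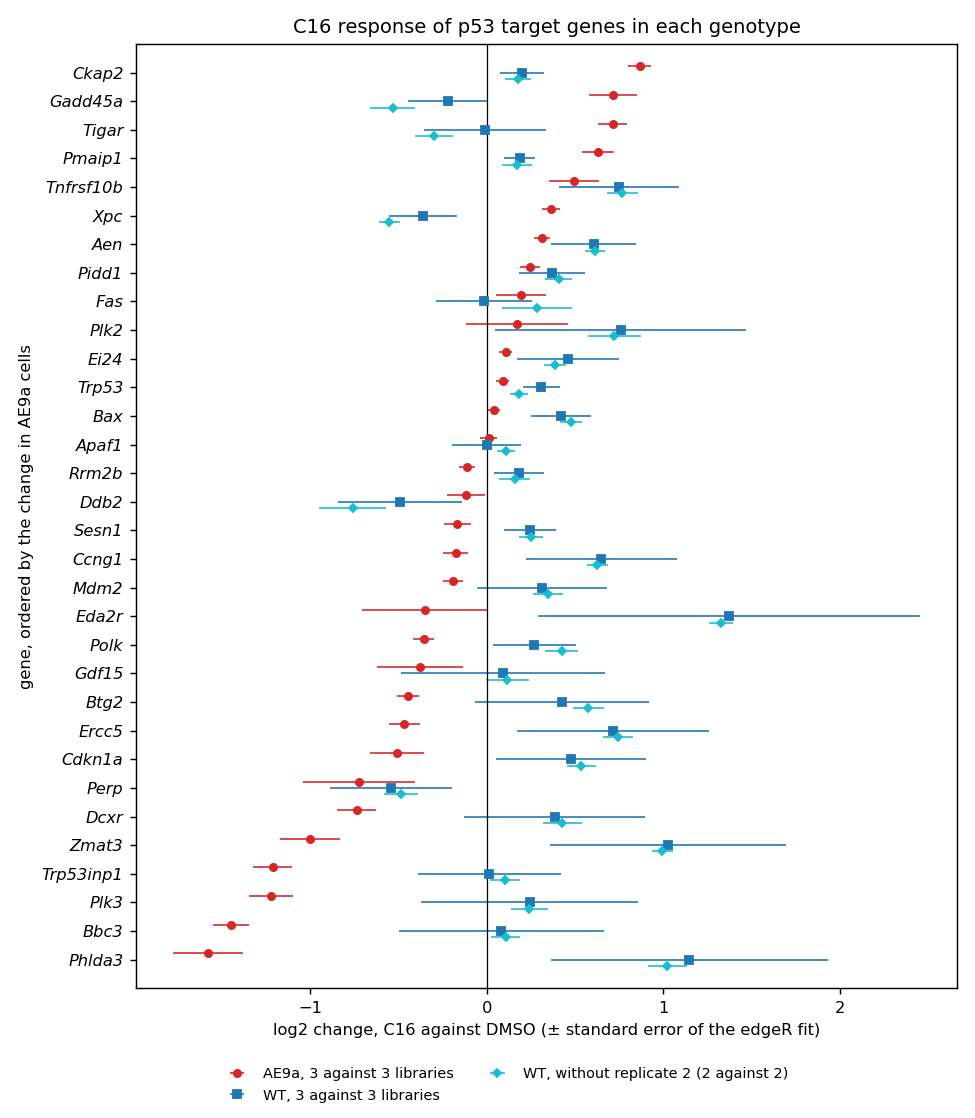
Log2 change under C16 against DMSO (horizontal axis, with the standard error of the fit) of each of the 32 genes in AE9a cells (red circles), WT cells (dark blue squares) and WT cells without replicate 2 (light blue diamonds), ordered by the change in AE9a cells. At the lower end, Phlda3 and Zmat3 lie at -1.57 and -1.0 in AE9a cells and at 1.15 and 1.02 in WT cells, where the errors are 0.78 and 0.67 with all libraries and 0.11 and 0.06 without replicate 2.

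For RE the difference between genotypes passed the test for none of the 32 genes nor for any of the 15809 genes (0.0% in either direction), by edgeR; among the 32, 1 was higher and 1 lower at an unadjusted p under 0.05, and DESeq2 called 0, beside 0.158% and 0.0569% of all genes. The median difference was -0.06 for the 32 genes and 0.00 for all genes. Sesn1, with 37.3, 37.3 and 39.6 CPM under DMSO and 27.8, 31.8 and 31.9 CPM under RE in AE9a cells, had lower levels under RE in both genotypes, by -0.27 and -0.63, and the difference of 0.39 ± 0.17 between them did not pass the test.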

How the data were processed

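Transcripts were counted in 18 libraries of bone marrow cells selected for cKit, 3 per genotype and treatment. The deposited values are raw counts of fragments per gene in 2 tables, 1 per genotype. Per the file headers, featureCounts 1.6.2 counted read pairs over the exons of each gene from primary alignments on GRCm39, without regard to strand. The submitters' processing notes name FastQC 0.11.9, fastp 0.23.2, HISAT2 2.1.0 and featureCounts 2.0.3; which featureCounts version was used is not known. Depth was 16053727 to 27207748 fragments, and the smallest count of any of the 32 genes was 18.

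CPM and FPKM were computed from the counts. Comparisons of compounds used the 9 libraries of their own genotype in edgeR 4.0.16 (R 4.3.3), and those of genotypes all 18, with filterByExpr, TMM scaling, quasi-likelihood F tests and Benjamini-Hochberg adjustment over all genes tested, at 0.05. Standard errors are the log2 change divided by the square root of F. All 32 genes could be named, with up to 4 genes of each pathway list per comparison (adjusted p under 0.05, at least 5 CPM, groups apart, largest changes first). The 32 genes and the lists were chosen with earlier results of these data known. The fits were checked on simulated counts.

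Whether replicate numbers pair the libraries was read from same-number correlations of deviations from group means. In WT cells DMSO and C16 libraries correlated at 0.701, 0.802 and 0.696, and RE libraries with those of DMSO at 0.729, 0.883 and 0.744. In AE9a cells the latter were 0.51, 0.344 and 0.424, but those of C16 with DMSO were 0.0668, 0.353 and 0.242, where pairing is not shown. Those of C16 with RE were 0.153, 0.154 and 0.163. Of the DMSO libraries, 3 of 3 in AE9a but 2 of 3 in WT cells correlated best with the C16 library of their own number. Changes within pairs are log2 ratios of CPM with a pseudocount of 0.5. Replicate 2 alone can give WT libraries such correlations. Alternatives were DESeq2 1.42.0, other scalings, no filter, replicate blocks, 1 fit of all libraries, and leaving out libraries.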

Additional observations from a re-analysis of the deposited data

Results flagged for a closer look

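The response to C16 differed between AE9a and WT cells, by the interaction term of the edgeR fit of 18 libraries, for Ckap2 (difference of log2 changes 0.72, AE9a minus WT), Xpc (0.78), Gadd45a (0.99) and Pmaip1 (0.50). In each the response was more positive in AE9a cells. Only the call of Ckap2 held whichever of the 18 libraries was left out. No library of a group was tested for lying far from the others, since groups of 3 are too small for it.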

How the results depend on the processing

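No called value changed sign under any alternative. For C16 in AE9a cells, 1 fit of all 18 libraries called 5 genes higher and 2 lower, and single libraries left out gave 7 to 9 and 11 to 14. Over all genes the main fit called 4870 and 4875 of 14704, and the fit of all 18 libraries 3836 and 3398 of 15809. For RE in AE9a cells the fit of all 18 libraries called 0 higher and 1 lower (main counts 4 and 8), and single libraries left out gave 1 to 6 and 5 to 8. Over all genes the fit of all 18 libraries called 337 higher and 163 lower (main 1797 and 2464). For C16 against RE that fit called 6 lower (main 14), and 4527 of all genes lower (main 5465). For C16 in WT cells the count of higher genes was 3 in that fit, 13 with the replicate block, 18 without the libraries numbered 2 and 19 with both, and that of lower genes 2, 4 and 5 under the last 3. Over all genes, 1565, 1565, 3168 and 3066 were higher in these settings in turn, and 2081, 3173 and 3105 lower in the last 3. Single libraries left out gave 0 higher and 0 to 1 lower of the p53 target genes. For RE in WT cells 1 gene was lower with the replicate block, 1 higher and 1 lower without the libraries numbered 2, and 2 higher and 1 lower with both. Over all genes, 31 were lower with the block, 644 higher and 575 lower without those libraries, and 713 and 590 with both. For AE9a against WT under DMSO, 2 were higher and 26 lower without the libraries numbered 2, beside 4003 and 4169 of all genes. Single libraries left out gave 1 higher and 5 to 16 lower, beside 1336 to 2956 of all genes lower. No paired analysis was possible because each block lies within a genotype. For the difference in C16 response, DESeq2 called 3 lower, the replicate block 15 lower (5 higher), and the fit without the libraries numbered 2 17 lower with or without the block, with 1 to 6 higher and 0 to 12 lower when single libraries were left out. Over all genes the single omissions gave 291 to 3642 higher and 793 to 2752 lower. For the difference in RE response 1 gene was higher with both, beside 184 of all genes. Leaving out the libraries numbered 2 rested on their standing apart in these data. The fit with both the block and no library numbered 2 was likewise chosen after seeing the data. The replicate block gave 9 and 13 for C16 in AE9a cells, whose numbers are not shown to pair, changed no call for RE or for C16 against RE in AE9a cells, and the cause of the shifts was not tested. The coefficient of variation was 0.103 among AE9a and 0.329 among WT libraries, 0.137 in WT with the block and 0.0636 without the libraries numbered 2.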
